A study of Mus musculus with 4 samples.

Results

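Clusters of CTCF sites were taken as runs of 3 or more CTCF peaks whose neighbouring summits lay at most 5 kb apart, in E12.5 mouse limbs. The members were chosen by the called CTCF peaks and their summit positions: they are autosomal peaks of CTCF replicate 1 that overlapped a peak of CTCF replicate 2 by at least 1 bp. Of 20866 such shared peaks, 436 (2.09%) fell into 140 clusters, 3130 formed 1565 pairs and 17300 stood alone. A cluster held 3 peaks in 127 cases, 4 in 11 cases, 5 in 1 case and 6 in 1 case.

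CTCF and the cohesin subunit RAD21 were profiled by ChIPmentation, a chromatin immunoprecipitation in which the transposase Tn5 adds the sequencing adapters, with 2 libraries per antibody. The tissue was 4 pooled whole limbs at E12.5 of TgN(38-40)/Wt; del(CS38-40)-/- embryos of strain B6CBAF1. These embryos were hemizygous for a fosmid transgene on chromosome 10 that carries region CS38-40 of the HoxD locus, partly in tandem, and lacked that region on both endogenous alleles, so all 4 of these libraries share the insertion and the deletion. A RAD21 peak list of wild-type limbs from an earlier ChIP-seq study (1 library) was used beside them, with its fold values given as the authors' values. Whole limbs mix cell types, so binding in fewer cells and weaker binding in each cell cannot be told apart.

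CTCF is a zinc-finger protein that binds a long, asymmetric DNA motif, and it stops the cohesin ring as cohesin extrudes chromatin loops. The direction of the motif matters for this stop, and loops are usually anchored by motifs that face each other from a distance. RAD21 closes the cohesin ring and marks the places where cohesin is held.

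The letters of 3 clusters are shown first, because they show the order and direction of motifs inside clusters, which the rule on summit spacing did not use. Capitals mark the 19 bp of the motif, read 5′ to 3′ on the strand that holds the G-rich motif, with 6 bases on either side. The sequences are from the mm10 (GRCm38) reference of RefSeq and were taken within 100 bp of the CTCF summit. The cluster just downstream of Tbx2, which encodes a T-box transcription factor of limb patterning, held 4 motifs, of which the first was on the minus strand and the next 3 were on the plus strand.
Tbx2 peak 1, minus strand, chr11:85842175-85842205: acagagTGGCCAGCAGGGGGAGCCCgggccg
Tbx2 peak 2, plus strand, chr11:85843396-85843426: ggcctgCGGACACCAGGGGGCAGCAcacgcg
Tbx2 peak 3, plus strand, chr11:85844797-85844827: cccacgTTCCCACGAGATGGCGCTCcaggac
Tbx2 peak 4, plus strand, chr11:85849261-85849291: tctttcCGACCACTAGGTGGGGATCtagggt

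The cluster upstream of Cdkn1c, an imprinted gene for an inhibitor of cyclin-dependent kinases, held 3 motifs that all pointed the same way.
Cdkn1c peak 1, minus strand, chr7:143464070-143464100: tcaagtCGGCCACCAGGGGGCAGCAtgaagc
Cdkn1c peak 2, minus strand, chr7:143466488-143466518: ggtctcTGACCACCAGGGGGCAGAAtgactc
Cdkn1c peak 3, minus strand, chr7:143470150-143470180: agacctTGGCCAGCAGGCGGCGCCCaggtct

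The cluster inside Pdgfra, which encodes a receptor for platelet-derived growth factor in mesenchyme, had its first motif facing the next 2.
Pdgfra peak 1, plus strand, chr5:75155808-75155838: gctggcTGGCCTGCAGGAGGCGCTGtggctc
Pdgfra peak 2, minus strand, chr5:75156362-75156392: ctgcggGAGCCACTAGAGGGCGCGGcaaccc
Pdgfra peak 3, minus strand, chr5:75157246-75157276: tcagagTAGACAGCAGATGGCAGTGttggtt

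A different kind of sequence lay under 3 clusters on chromosomes 2, 9 and 14, which held no CTCF motif. Their summit windows shared a run of 52 identical bases, given in capitals with 15 bases on either side, of the type of the major satellite repeat of mouse pericentromeres.
Chromosome 2 cluster, plus strand, chr2:98667118-98667199: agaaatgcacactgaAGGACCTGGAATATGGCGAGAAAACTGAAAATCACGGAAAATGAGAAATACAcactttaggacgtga
Chromosome 9 cluster, minus strand, chr9:3025518-3025599: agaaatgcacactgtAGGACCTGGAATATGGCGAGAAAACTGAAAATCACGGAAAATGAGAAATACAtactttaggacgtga
Chromosome 14 cluster, plus strand, chr14:19418747-19418828: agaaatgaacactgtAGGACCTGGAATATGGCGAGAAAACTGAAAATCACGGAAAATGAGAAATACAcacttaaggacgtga

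The lists differed in size. On the autosomes, CTCF replicates 1 and 2 had 23433 and 25726 peaks, RAD21 replicates 1 and 2 had 4053 and 14459, and the wild-type RAD21 list had 20364. Each deposited peak carries a fold enrichment, the ratio of reads stacked at its summit to those a local background would give, together with p- and q-values on the −log10 scale. For 100% of the shared CTCF peaks the whole number of reads at the summit (the pileup) and the expectation could be recovered from the fold and the p-value, to within 0.001 of the deposited −log10 p. Peaks of 1 library are not replicates, so shares are given for each library with no test. Their 95% Wilson intervals cover counting error only and treat peaks as independent, which neighbours in a cluster may not be.

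Clustered peaks had lower fold enrichments than lone peaks but more reads. This contrast uses the CTCF lists that chose the members, so it is a description. In replicate 1 the median fold was 5.11 in clusters, 5.74 in pairs and 7.02 for peaks standing alone, and in replicate 2 it was 6.55, 7.40 and 8.64. The order of the reads was the opposite. In replicate 1 the median pileup was 21 reads in clusters, 19 in pairs and 16 alone, and in replicate 2 it was 21, 19 and 17. The local expectation rose more steeply, from 1.38 reads alone through 2.36 in pairs to 3.14 in clusters in replicate 1, and from 1.01 through 1.75 to 2.3 in replicate 2. In replicate 1, 98.4% of the members had an expectation above the median of the lone peaks, and in replicate 2 99.1% did. Whether MACS2, the peak caller, took the expectation from an input control or from the ChIP library itself is not given in the sources used here, and whether reads of neighbouring peaks enter it was not tested.

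**Figure D1:**
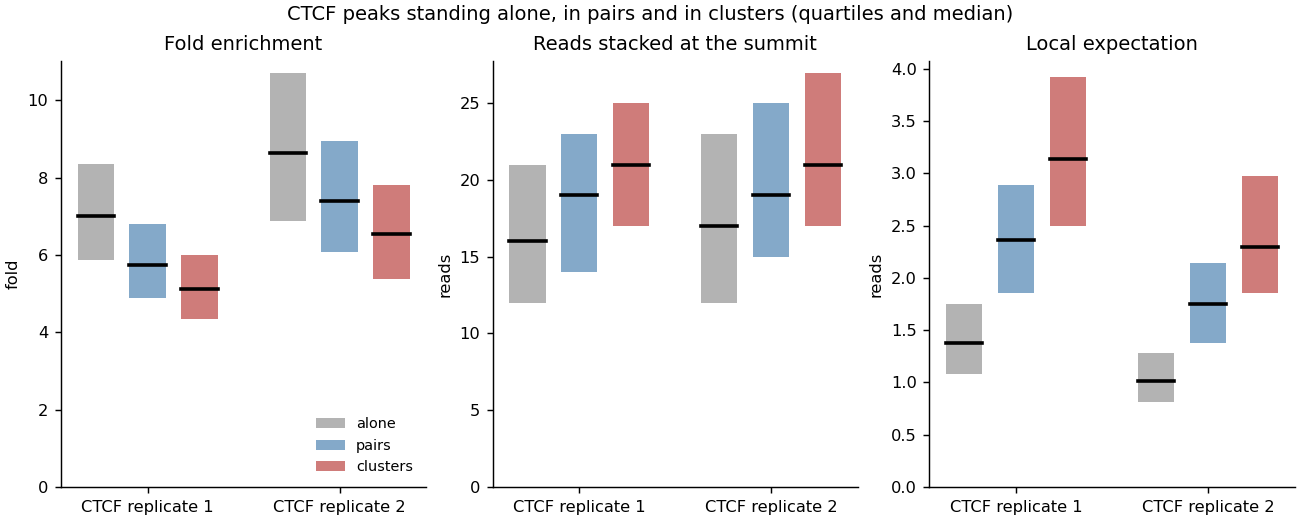
Fold enrichment, reads stacked at the summit and local expectation (y axes; fold or reads) of CTCF peaks standing alone (grey), in pairs (blue) and in clusters (red), in both CTCF replicates. Boxes span the quartiles and black lines are medians: from lone peaks to clusters the median fold falls (7.02 to 5.11 in replicate 1) while the median pileup rises (16 to 21 in replicate 1).

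Members of the same cluster differed in strength by less than 2 times in most clusters. The ratio of the strongest to the weakest fold in a cluster had a median of 1.40 in replicate 1 and 1.58 in replicate 2, and reached 3.08 and 3.64. The replicates named the same member as the strongest in 83 of 140 clusters. Across the 436 members, log2 fold correlated between the replicates with Pearson r = 0.65, beside 0.63 for the other shared peaks, and the 2 values of a point share their place in the genome. The middle peak was the strongest in 45 of the 127 clusters of 3 in replicate 1 and in 46 in replicate 2.

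At the limit of the rule, the longest gap inside a cluster was 4994 bp and the shortest gap just over the limit was 5009 bp. Gaps from 4 to 5 kb separated 328 neighbouring peaks and gaps from 5 to 6 kb separated 398, and 75 pairs had a further shared peak within 6 kb. Clusters spanned 637 to 10004 bp with a median of 5576 bp.

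Some members are not separate sites in the other library. The 436 members overlapped 419 distinct peaks of CTCF replicate 2, and 33 members in 16 clusters shared such a peak with another member. This touched 4 of the 5 clusters with the shortest mean gap. The tightest, chr14:118767905-118768541, lay 19367 bp upstream of Cldn10, a gene for a tight junction protein, with a mean gap of 246 bp. Its 3 peaks of replicate 1 had folds of 4.46, 8.10 and 4.76, and the same peak of replicate 2, with a fold of 12.99, covered all 3. A motif was found at the middle peak, which also had the highest fold in replicate 1.

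The next in gap length was on chromosome 19 (chr19:5786477-5787444; mean gap 324 bp), with 3 peaks over 2 peaks of replicate 2. After it came chr6:53818269-53819284, in Tril, which encodes a Toll-like receptor co-factor, with replicate 1 folds of 5.60, 5.67 and 5.29. Then came chr4:111687073-111687994, 31990 bp upstream of Spata6, with folds of 7.53, 3.53 and 5.59. Each of these also rested on 2 peaks of replicate 2. The last of the 5, on chromosome 14, is among the repeats.

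The 6-peak cluster lay over a ribosomal RNA gene, and the other clusters with RAD21 at every peak in both replicates lay on satellite-type repeats. The 6-peak cluster, chr17:39843045-39848757, overlapped an annotated ribosomal RNA gene (CT010467.1) and the long non-coding RNA gene Gm26917. Its CTCF folds ran from 2.44 to 2.89 in replicate 1 and from 2.3 to 3.26 in replicate 2, all below the lowest fold of any shared peak outside clusters (3.09 and 3.51). The pileups behind them were 65 to 81 reads in replicate 1 and 37 to 53 in replicate 2, and the expectations were 24.0 to 28 and 13.8 to 15.7 reads. RAD21 peaks covered all 6 members in each list. Their folds lay between 2.23 and 2.86 in replicate 1, between 2.23 and 2.91 in replicate 2 and between 2.14 and 2.36 in wild-type limbs.

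The other 2 clusters with RAD21 at every peak in both replicates were those on chromosomes 2 and 9. On chromosome 2 (chr2:98662248-98667353; over Gm10801 and Gm10800) the 3 CTCF folds were 6.54, 4.92 and 7.47 in replicate 1, and the RAD21 folds were 7.03, 4.91 and 6.98. On chromosome 9 (chr9:3018266-3027183; over Gm10717 and other predicted genes) the strongest peak had folds of 19.02 and 18.86 for CTCF and of 18.72 and 15.90 for RAD21. The lowest peak on chromosome 2 and the highest on chromosome 9 were the same for both antibodies in both replicates. The wild-type RAD21 folds were 5.29, 2.35 and 3.83 on chromosome 2. On chromosome 9 the wild-type list had no peak at the first member and 4.95, 4.54 and 5.73 at the others, the lowest of these at the strongest CTCF peak. The 4-peak cluster on chromosome 14 (chr14:19417463-19418914; in Gm21738) had a RAD21 peak at 3 members in replicate 1 and 2 in replicate 2.

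Together these 4 clusters held 17 members. None of the 17 had a motif within 100 bp of the summit, while 347 of the other 419 members (82.8%) did. RAD21 covered 16 of the 17 in replicate 1 and 15 in replicate 2, and the wild-type RAD21 peaks covered 16. The ratio of RAD21 to CTCF fold in replicate 1 had a median of 0.994 over 16 of them (0.788 to 1.15) and of 1.05 over the 54 other members with such a peak (0.547 to 1.94). The copy number of these repeats was not tested, and since they stand apart, the RAD21 and motif shares are given with and without them.

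**Figure D2:**
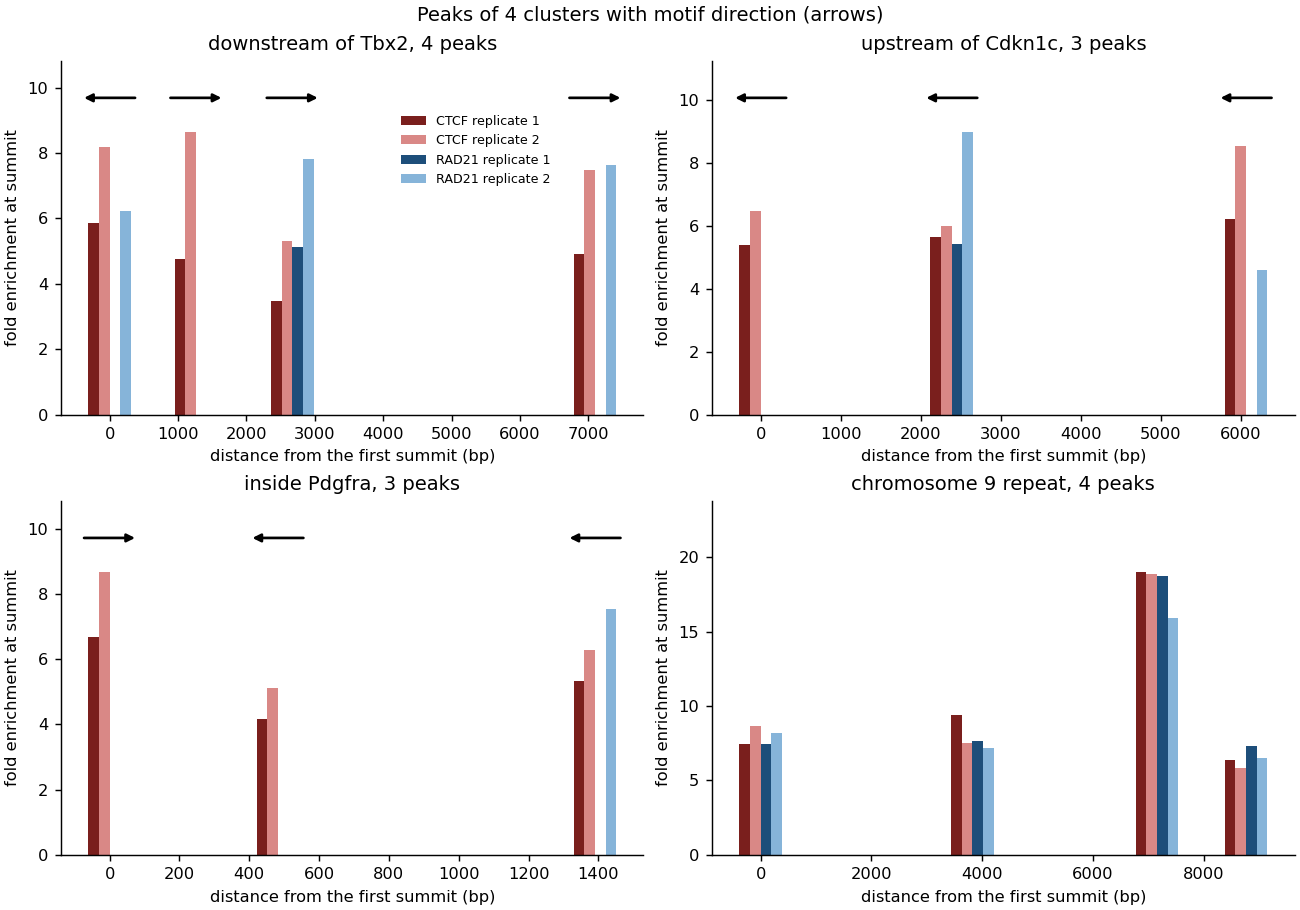
Fold enrichment (y axis) of CTCF replicates 1 and 2 (dark and light red) and RAD21 replicates 1 and 2 (dark and light blue) at each peak of 4 clusters, against distance from the first summit in bp (x axis); arrows give the direction of a motif within 100 bp and a missing bar is no peak. At Tbx2, Cdkn1c and Pdgfra RAD21 peaks are missing at some members, whereas on chromosome 9 all 4 bars of a peak are of similar height and no motif is drawn.

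RAD21 peaks lay at a lower share of clustered than of other CTCF peaks in RAD21 replicate 2. In replicate 1 and in wild-type limbs the shares of clustered and other peaks were within counting error. RAD21 was not used to choose the members. In replicate 2, 209 of 436 members (47.9%, interval 43.3 to 52.6) overlapped a RAD21 peak, against 11625 of 20430 other shared peaks (56.9%) and 56.7% of all shared peaks. In replicate 1, the list with the fewest peaks, 70 members did (16.1%, 12.9 to 19.8), against 17.7% of the others and 17.7% of all. In the wild-type list 299 members did (68.6%, 64.1 to 72.8), against 69.3% of the others and 69.2% of all. Without the 4 clusters on repeats the share fell to 12.9% (10.0 to 16.4) in replicate 1. It was then 46.3% (41.6 to 51.1) in replicate 2, and 67.5% (62.9 to 71.8) for wild-type RAD21. These values are descriptions, since 3 of the 4 clusters had RAD21 at every peak in both replicates. The other shared peaks were not screened for repeats in the same way. Pairs lay between clusters and lone peaks in replicate 2, at 51.8%, with lone peaks at 57.8%. In replicate 1 pairs were at 13.9% and lone peaks at 18.4%, and the wild-type shares of pairs and lone peaks were 69.2% and 69.3%. In clusters of 4 or more peaks (55 members, 14 of them on repeats) the difference in replicate 2 turned, to 3.29 percentage points above the other shared peaks, and among peaks with −log10 q of at least 10 (12 members) it was 2.14 points above. Without the clusters on repeats these differences were -5.48 points on 41 members and -6.18 points on 9 members.

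How RAD21 compared at like CTCF strength depended on the measure of strength. By quartile of the CTCF replicate 2 fold, the RAD21 replicate 2 share in clusters was higher in the lowest quartile (39.4% against 34.6%) and the second (55.9% against 51.3%), and lower in the next (57.7% against 64.5%) and the highest (65.4% against 76.2%). The lowest quartile held 231 of the 436 members. By quartile of the CTCF replicate 2 pileup, a view chosen after the values were seen, it was lower in every quartile, with 8.70% against 34.9%, 37.4% against 53.1%, 48.6% against 65.9% and 58.8% against 74.4% from the lowest to the highest. The lowest pileup quartile held 23 members and the highest 170. Over the 3 RAD21 lists and 4 quartiles, the share was lower in clusters in 12 of 12 comparisons by pileup of CTCF replicate 2 and in 11 of 12 by pileup of replicate 1. By fold it was lower in 4 of 12 and in 3 of 12. These comparisons share their peaks and are not independent. The local expectation of called RAD21 replicate 2 peaks was also higher over clusters, at a median of 1.88 reads against 1.09 over lone peaks. A RAD21 call needs more reads where the expectation is higher, and the effect of this on the shares was not tested.

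**Figure D3:**
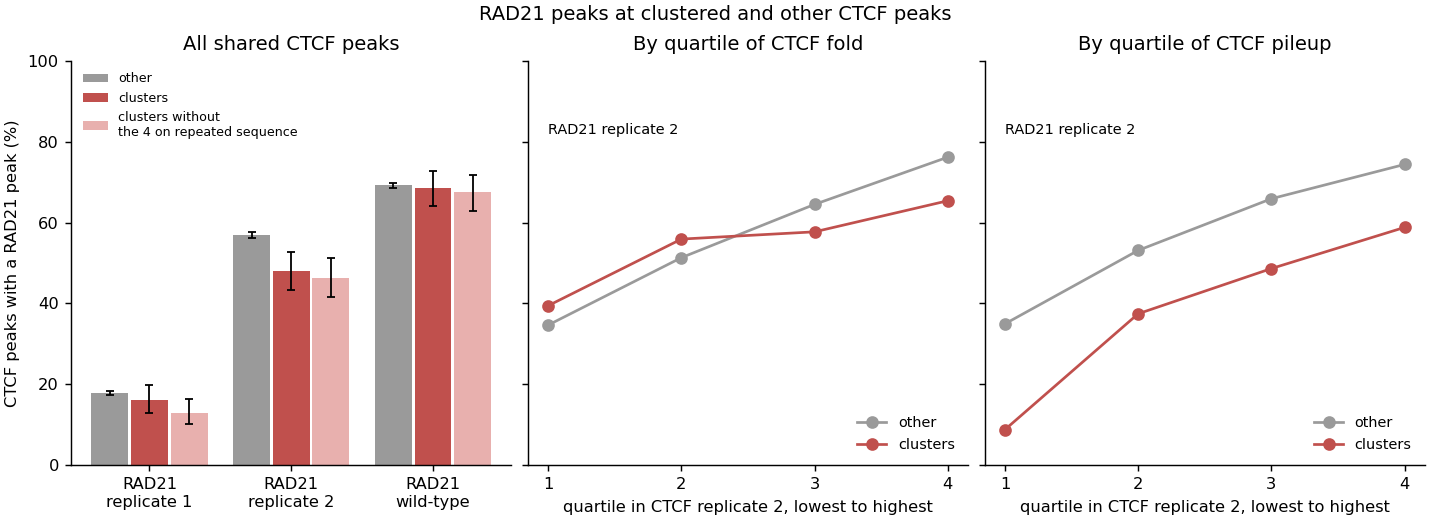
Share of CTCF peaks that overlap a RAD21 peak (y axis, %) for clustered (red), clustered without the 4 clusters on repeats (light red, left only) and other shared peaks (grey), in the 3 RAD21 lists on the left with 95% Wilson intervals, and for RAD21 replicate 2 by quartile of CTCF replicate 2 fold (middle) and pileup (right). The lines cross when peaks are ranked by fold, whereas by pileup the clustered peaks lie below in all 4 quartiles.

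RAD21 at every peak of a cluster was less frequent in the transgenic lists than in the wild-type list. That list is longer (20364 autosomal peaks against 4053 and 14459) and comes from ChIP-seq, so genotype and list cannot be told apart. Its RAD21 share over all shared CTCF peaks was 69.2%, against 17.7% in replicate 1 and 56.7% in replicate 2. The counts that such shares alone would give were not computed. In replicate 2, 14 clusters had RAD21 at every peak, 106 at some and 20 at none. In replicate 1 the counts were 3, 47 and 90, and the 3 clusters with RAD21 at every peak were those described above on chromosomes 2, 9 and 17. For wild-type RAD21 they were 53, 78 and 9, but there 35 of the 299 members shared their RAD21 peak with another member. The lists were nested at members and at the other shared peaks alike. Of the 70 members with RAD21 in replicate 1, 68 (97.1%) also had it in replicate 2, against 98.8% at the other shared peaks. Of the 209 in replicate 2, 206 (98.6%) had it in the wild-type list, against 96.3%. No list had RAD21 at 134 members (30.7%), against 28.6% of the other shared peaks.

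Inner peaks of a cluster held RAD21 at slightly higher shares than the outer ones, with 50.6% of 156 against 46.4% of 280 in replicate 2. The shares were 19.9% against 13.9% in replicate 1, and 73.1% against 66.1% with wild-type RAD21. Without the 4 clusters on repeats these were 48.3% against 45.2%, 15.0% against 11.8% and 71.4% against 65.4%. No interval was computed for these differences, and the lists are nested, so their common direction is not independent. The strongest CTCF peak of a cluster in replicate 2 had RAD21 of replicate 2 in 78 of 140 cases (55.7%), and the remaining members did in 131 of 296 (44.3%). At promoters, 16 of 51 clustered peaks had RAD21 in replicate 2 (31.4%), beside 39.5% of the other promoter peaks, and without the clusters on repeats 10 of 44 did (22.7%).

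The CTCF motif was found at similar shares in clusters and elsewhere. A motif lying with all its 19 bp within 50 bp of the summit was found at 228 members (52.3%, 47.6 to 56.9), against 53.4% of the other shared peaks and 53.4% of all. Without the clusters on repeats it was 54.4% (49.6 to 59.1). The threshold was set so that 5.00% of windows 300 bp to the side of other shared peaks passed it, and 5.73% of such windows beside members did. Within 100 bp, the shares were 79.6% of the members and 83.4% of the others, and the summits of replicate 1 lay a median of 33.0 bp from the motif centre in clusters and 34.0 bp elsewhere. In 25 clusters every peak held a motif within 50 bp, and in 20 clusters none did, the 4 on repeats among them. The Cdkn1c cluster is also among these 20, since its printed motifs reach beyond 50 bp and were found in the wider window. Of the 85 neighbours in clusters with motifs within 50 bp, 0 had motifs that differed at 2 or fewer of their 19 bases. This was also rare in pairs (0.676%) and among all neighbours (0.536%), so the 0 sets clusters apart from neither. Outside the repeats, the summit windows of separate members shared a word of 20 bases in 1 cluster, and 0.639% of the pairs did.

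Motifs of neighbouring peaks in clusters faced each other at a lower share than those of neighbours further apart. With motifs within 50 bp of both summits, 51 of 85 neighbours in clusters were on the same strand (60.0%, 49.4 to 69.8), against 55.2% of 444 pairs, 49.0% of 5357 neighbours further apart than 5 kb and 49.7% of all neighbours. Facing motifs made up 18.8% in clusters (11.9 to 28.4), 14.9% in pairs and 25.8% further apart, so in this narrow window the interval of the clusters covered the value of distant neighbours. Motifs pointing apart made up 21.2%, 30.0% and 25.2%. The wider window gave more neighbours, with the same order for the same strand and for facing motifs, but not for motifs pointing apart. Of 194 neighbours in clusters, 57.7% (50.7 to 64.5) were on the same strand, 16% (11.5 to 21.8) faced each other and 26.3% pointed apart. In 1080 pairs these were 57.5%, 14.1% (12.1 to 16.3) and 28.4%, and in 13062 neighbours further apart they were 48.7%, 25.9% (25.1 to 26.6) and 25.4%. In this window clusters and pairs had overlapping intervals for facing motifs, and both lay below that of neighbours over 5 kb apart. The lower share of facing motifs was thus not particular to clusters.

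**Figure D4:**
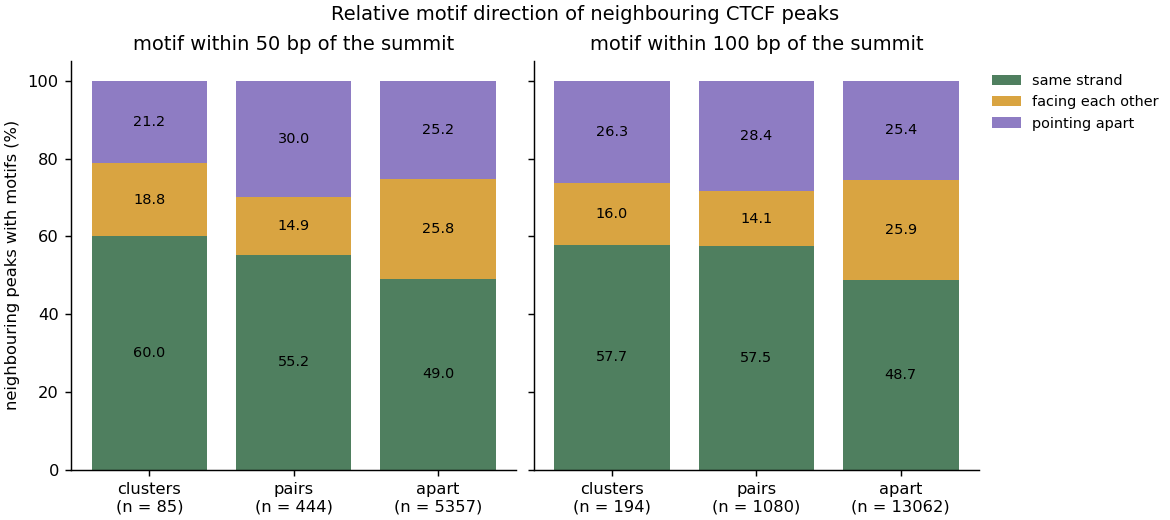
Share of neighbouring CTCF peaks (y axis, %) whose motifs lie on the same strand (green), face each other (yellow) or point apart (violet), for neighbours within clusters, within pairs and more than 5 kb apart, with motifs within 50 bp (left) or 100 bp (right) of the summits. Facing motifs fill 16% of the bar of clusters on the right and 14.1% of that of pairs, but 25.9% of neighbours further apart.

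Whole clusters with 1 motif direction were counted next. Of 28 clusters with 3 or more motifs within 50 bp, 10 had all of them on the same strand. Runs of 3 neighbouring peaks with motifs were on the same strand in 10 of 27 cases in clusters (37.0%) and in 731 of 3126 elsewhere (23.4%). With the wider window these were 29 of 85 (34.1%) and 2701 of 11719 (23.0%). No cluster of 4 or more peaks held a motif within 50 bp at every peak with all on the same strand. Within 100 bp 1 did, chr10:59289236-59296639, with 4 motifs on the plus strand, but in the narrow window it had motifs at 2 peaks, on opposite strands.

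Clusters were spread over gene-rich and gene-free DNA. Of the 140 clusters, 52 overlapped no protein-coding gene, 73 overlapped 1 and 15 overlapped 2 or more, and 39 had no coding gene within 5 kb. Within 1 kb of a coding start lay 51 members (11.7%, 9.01 to 15.1), against 10.4% of the other shared peaks and 10.5% of all. Without the clusters on repeats the share was 10.5%. Exons held 14.2% of the members against 10.6% of the others, and 43.6% against 44.8% were intergenic. In 2 clusters every peak lay within 1 kb of a coding start, those at Pdgfra and Ap5b1. The Pdgfra cluster began 3405 bp inside the annotated start of that gene, so its call rests on another annotated coding start.

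No cluster by this rule lay near the Hox and clustered protocadherin genes, known for their arrays of CTCF sites. Several large gene families had none either, but few shared peaks of any kind lay near these genes. No cluster lay within 5 kb of any of 39 Hox genes, 58 clustered protocadherin genes, 407 zinc-finger (Zfp) genes, 1399 olfactory receptor genes, 561 vomeronasal receptor genes or 83 histone genes. The other shared peaks near them numbered 18, 5, 168, 44, 10 and 14 (0.0881%, 0.0245%, 0.822%, 0.215%, 0.0489% and 0.0685%). No cluster was near the 9 boundary genes or the 10 globin and Myc genes either, which had 9 and 4 other shared peaks. In the imprinted list of 42 genes, 1 cluster was found, at Cdkn1c, with 1 member (0.229%) beside 31 other shared peaks (0.152%). In the limb list of 44 genes 1 was found, at Tbx2, with 3 members (0.688%) beside 35 others (0.171%). A keratin cluster lay at Krt28, with 3 members beside 5 others (0.0245%). Of 139 genes of developmental transcription factor families, Tbx2, Nkx2-2 and Sox13 each had a cluster, with 9 members in all (2.06%) beside 79 others (0.387%). The Tbx2 cluster is counted in this list and in the limb list. Members of the same cluster are not separate loci, so these shares rest on 1 cluster per list, or on 3 for the last list. These lists were counted with no test. Over all shared peaks 2.09% were clustered, so a count of 0 among 140 clusters sets no direction for any of these lists, short or long.

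At Tbx2 the cluster chr11:85842027-85849391 began 79 bp past the end of the gene and spanned 7365 bp. From the first to the last peak the CTCF folds were 5.85, 4.76, 3.47 and 4.93 in replicate 1 and 8.20, 8.65, 5.30 and 7.47 in replicate 2. In replicate 2 RAD21 covered all but the second peak, with folds of 6.23, 7.83 and 7.62, and the wild-type list covered all 4, with 3.88, 2.99, 6.66 and 7.00. In replicate 1 it covered the peak printed as number 3, with 5.14. The peak with RAD21 in every list had the lowest CTCF fold in both CTCF replicates, but by pileup the last peak was the weakest, with 16 reads in replicate 1 and 19 in replicate 2 against 18 and 21 at peak 3. The motif printed above for the first peak lies on the opposite strand from the others and 42 bp from the summit.

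At Cdkn1c the cluster chr7:143463874-143470315 lay 2824 bp upstream of the gene start, between Cdkn1c and the transporter gene Slc22a18. Its CTCF folds were 5.40, 5.65 and 6.22 in replicate 1 and 6.46, 6.0 and 8.52 in replicate 2. The middle peak had RAD21 in all 3 lists, with folds of 5.43, 8.98 and 8.10. The first peak had it in the wild-type list, with 5.01, and the last in replicate 2 and the wild-type list, with 4.6 and 5.84. Its 3 motifs all lie on the minus strand, on which Cdkn1c is also transcribed.

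The clusters at Nkx2-2, Sox13 and Krt28 are given because they are the ones found for the counted families, and they were picked after their values were seen. At Nkx2-2, a homeobox gene, the cluster chr2:147177781-147179125 lay inside the gene, with CTCF folds of 5.38, 5.79 and 5.70 in replicate 1 and 4.15, 6.64 and 5.37 in replicate 2. RAD21 was at the first peak in all 3 lists, with 6.11, 9.66 and 6.29, and at the others in the wild-type list, with 2.42 and 2.66. At Sox13, a gene of the SOX family of transcription factors, the 3 peaks of chr1:133380742-133385844 had folds of 4.1, 5.38 and 4.33 in replicate 1 and 5.59, 6.88 and 5.50 in replicate 2. The middle peak had RAD21 in replicate 2 and the wild-type list, with 6.56 and 7.38, and the last in the wild-type list, with 3.93. At Krt28, a keratin gene, the 3 peaks of chr11:99364439-99369670 had folds of 4.55, 4.53 and 4.34 in replicate 1 and 4.47, 6.79 and 6.79 in replicate 2, the last 2 from the same peak, and RAD21 at none.

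Further clusters at genes of connective tissue and signalling were chosen after their values were seen. At Pdgfra (chr5:75155697-75157352) the CTCF folds were 6.69, 4.17 and 5.34 in replicate 1 and 8.68, 5.11 and 6.29 in replicate 2. RAD21 was at the last peak in replicate 2, with 7.55, and at the last 2 in the wild-type list, with 4.11 and 5.14. At Col1a1, which encodes a chain of type I collagen, the 3 peaks of chr11:94936888-94942608 had folds of 6.09, 5.04 and 4.90 in replicate 1 and 7.37, 5.35 and 4.7 in replicate 2. The first, 900 bp from the Col1a1 start, had RAD21 in all 3 lists, with 7.03, 13.72 and 9.33, and the second had it in the wild-type list, with 2.82. At Wnt1, a secreted signalling gene, the 3 peaks of chr15:98785821-98789917 had folds of 4.44, 4.41 and 4.1 in replicate 1 and 4.21, 6.23 and 6.23 in replicate 2, the last 2 from the same peak, and RAD21 at none.

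The 5-peak cluster, also named after its values were seen, was on chromosome 18 between 76372498 and 76380380, over 100 kb from the start of Smad2, the nearest coding start. Its CTCF folds were 5.71, 5.45, 3.08, 8.53 and 3.77 in replicate 1 and 7.57, 6.79, 6.79, 8.97 and 5.29 in replicate 2, where members 2 and 3 share a peak. RAD21 was at members 1 and 4 in both replicates, with 6.11 and 8.47 in replicate 1 and 6.37 and 8.05 in replicate 2, and at all 5 in the wild-type list.

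Chromosome 11 held the most clusters. Its 19 clusters took in 58 of its 1606 shared peaks (3.61%), and it had 15.6 clusters per 100 Mb with 13.2 shared peaks per Mb. Chromosomes 14 and 3 had the lowest shares, 0.861% and 0.886%, with 1.60 and 1.87 clusters per 100 Mb and 6.51 and 6.35 shared peaks per Mb. By density chromosome 9 came next, with 12 clusters and 9.63 per 100 Mb, and by number chromosome 2, with 14. Chromosome 11 also had the most shared peaks per Mb, and a rule on spacing finds more chains where peaks are denser.

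**Figure D5:**
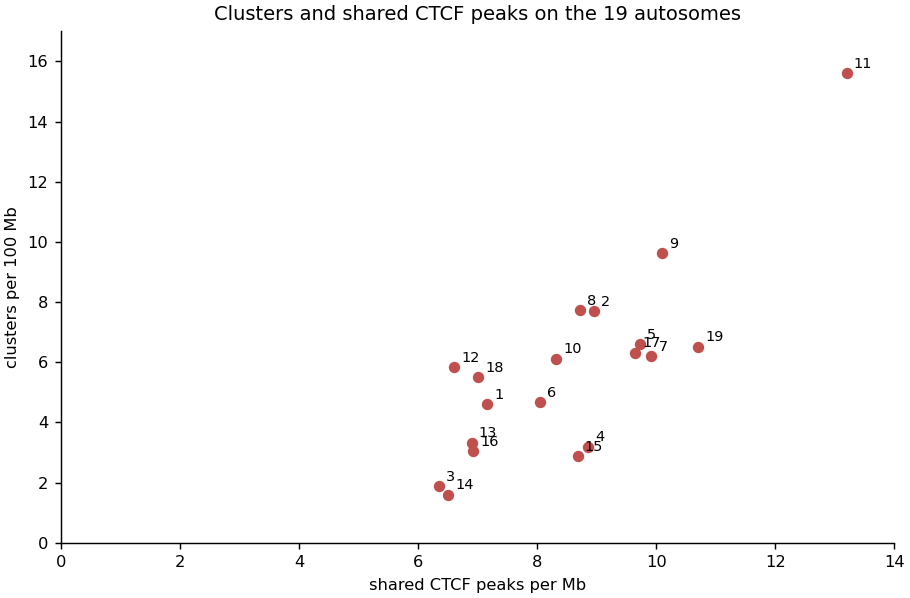
Clusters per 100 Mb (y axis) against shared CTCF peaks per Mb (x axis) for the 19 autosomes, 1 point per chromosome with its number. Chromosome 11 lies at the top right with 15.6 clusters per 100 Mb, and chromosomes 3 and 14 at the bottom left.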

How the data were processed

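CTCF and RAD21 ChIPmentation libraries (2 per antibody) and 1 wild-type RAD21 library were analysed as deposited peak lists; the input libraries were not used here. The authors mapped 50 bp single-end reads to mm10 and called peaks in each replicate with MACS2 at default parameters. MACS2 2.1.1.20160309, after Bowtie2 2.3.4.1 and cutadapt 1.16, is in the submitters' processing notes. The deposited columns are the fold enrichment at the summit, a ratio, and −log10 of the p-value and of the q-value. Whether peak calling used a control is not given in the sources used here. The authors' custom genome lists served as an alternative.

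Shared peaks were chained by summit as described. A 19 bp motif model was learned from 2000 shared peaks outside clusters, and its forward strand is the G-rich one. Annotation was GENCODE M21, and no peak ran past the end of a chromosome of the GRCm38 reference. Pileups were recovered by finding the whole number that gives the deposited p-value at the deposited fold. The members, gene lists and named clusters were chosen with earlier results of these data known. Named clusters were those of 6 or more peaks, the 5 with the shortest mean gap, those within 5 kb of a listed gene, and those with RAD21 of both replicates at every peak; clusters of 4 or more peaks with a motif on the same strand at every peak were also to be named, and none was found with motifs within 50 bp. Others are marked in the text. The pileups, the wider motif window at all neighbours, the shared words and the results without 4 clusters were chosen after seeing the data. The study's methods count 2 biological replicates per antibody, which the labels hold as lists of the same sample. Overlap, chaining, motif and pileup code were tested on simulated data. The software was pandas 2.3.3, Python 3.11.15, pysam 0.24.0, matplotlib 3.10.9, NumPy 2.4.6, SAMtools 1.23.1 and SciPy 1.17.1.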

Additional observations from a re-analysis of the deposited data

How the results depend on the processing

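Differences are shares in clusters minus shares in the other shared peaks, in percentage points, and none has a test. As reported they were -1.64 for RAD21 replicate 1, -8.97 for RAD21 replicate 2, -0.673 for wild-type RAD21, -1.11 for the motif, 1.3 for promoters and 10.5 for same-strand neighbours. With −log10 q of at least 10 in both replicates there were 4 clusters (0.154% of shared peaks, 12 members), and the differences were 22.6, 2.14, 7.69, -28.1, 12 and 53.8, the last from 1 neighbour. Without the clusters on repeats this left 3 clusters (0.116%), with 5.93 for RAD21 replicate 1, 4.93 for wild-type RAD21 and -17.0 for the motif. A chain distance of 2 kb gave 27 clusters (0.403%), with 0.193 for RAD21 replicate 1, -17.5 for RAD21 replicate 2 and 7.42 for promoters. One of 10 kb gave 585 clusters (9.16%), with 1.84 for the motif, -3.43 for RAD21 replicate 1 and -4.21 for wild-type RAD21. The wild-type share was then 65.4% of 1911 members against 69.6%. Counting RAD21 summits within 100 bp of the CTCF summit gave -4.47 for wild-type RAD21 (58.0% against 62.5%). In 5 of its 12 alternatives the wild-type difference changed sign. Chains of at least 4 peaks numbered 13 (0.264%), with 16.9, 3.29 and 10.8 for the 3 RAD21 lists and -13.4 for the motif, and without the clusters on repeats 6.41 for wild-type RAD21 and 0.237 for the motif. Leaving out those 4 clusters gave -4.81 for RAD21 replicate 1 and 1.01 for the motif, and keeping 1 member per replicate 2 peak gave 1.17 for the motif. Promoters within 250 bp gave -1.38. Clusters held 1.73% of shared peaks with a reciprocal overlap of 50% and 2.60% in the custom genome lists, for which the differences were not computed. With either CTCF list alone, 210 to 264 clusters were found (2.83% to 3.20%), and the differences ran from -2.06 to -1.32 for RAD21 replicate 1, from -9.63 to -5.93 for RAD21 replicate 2, from -1.14 to 2.72 for wild-type RAD21, from -3.01 to 3.71 for the motif and from -1.07 to 1.53 for promoters. The cause of these changes was not tested. Over the 12 alternatives run for it, the lower RAD21 replicate 2 share kept its sign except with the stricter q-value and in chains of at least 4 peaks. Without the clusters on repeats the difference was below 0 in both (-6.18 and -5.48). Those 2 values rest on only 9 and 41 members, so their sign is weakly held. No paired analysis was possible because no result comes from a test. RAD21 replicate 1, with the fewest peaks, limits what can be said of cohesin at single members.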

Other observations

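The sequence around clustered summits differed from that around other shared peaks. Within 100 bp of the summit the median GC content was 52.2% in clusters, 51.2% in pairs and 49.3% for lone peaks, and the median number of CpG dinucleotides was 4.00, 3.00 and 3.00. The median soft-masked share was 0.498% in clusters, 4.48% in pairs and 9.45% for lone peaks. The median distance to a protein-coding start was 12225 bp in clusters, 14220 bp in pairs and 18229 bp for lone peaks. Peaks of replicate 1 were narrower in clusters, with a median width of 272 bp, against 282 bp in pairs and 318 bp alone.
Where RAD21 peaks were called, their medians were ordered as for CTCF in both replicates, while in the wild-type list the pileup of pairs equalled that of lone peaks. In RAD21 replicate 2 the median pileup at called peaks was 18.0 reads over clusters, 17 over pairs and 15.0 over lone peaks, and the median expectation was 1.88, 1.47 and 1.09 reads. The median fold ran the other way, with 6.56, 7.10 and 7.83. These medians cover called peaks only, whose threshold in reads rises with the expectation.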
